A study of Mus musculus with 18 samples.

Results

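The nuclear genes that encode the subunits of the mitochondrial respiratory chain and ATP synthase were followed in mouse colon after dextran sulfate sodium (DSS) colitis. Members were the genes of the deposited table whose symbol starts with Ndufa, Ndufb, Ndufc, Ndufs, Ndufv, Uqcr or Atp5, or with Cox4, Cox5, Cox6, Cox7 or Cox8, together with Sdha, Sdhb, Sdhc, Sdhd, Cyc1 and Cycs. Assembly factors named Ndufaf and 1 pseudogene were left out. This gave 87 genes of the 18349 in the table, and 85 of them had at least 1 FPKM in at least 3 libraries and were tested. There were 38 genes of complex I, 4 of complex II, 10 of complex III with its electron carrier cytochrome c, 18 of complex IV and 17 of complex V. Ndufa4 and its paralog Ndufa4l2 are counted with complex IV, where the Ndufa4 protein is now placed. Ndufb4b and Cox6a2 did not pass the filter, and Cox7b2 and Cox8c were not analysed here.

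Whole colons of male C57BL/6 mice of wild-type genotype were profiled by bulk RNA sequencing, in 18 libraries of 5 groups. In 4 groups the mice drank 2.5% DSS for 7 days, a polymer toxic to colonic epithelium. The DSS group (n = 3) carries no other treatment on its sample labels, and the protocol describes gavage with PBS for colitis mice without bacteria. The WT, KO and COM groups (n = 4 each) were then gavaged for 5 weeks with a strain of the lactic acid bacterium Lactobacillus plantarum, labelled ZJ316_WT, ZJ316_KO or ZJ316_COM. Control mice (n = 3) drank water, and no gavage is described for them. WT, KO and COM thus name bacterial strains and not mouse genotypes, and the labels give neither the meaning of KO and COM nor the age of the mice. Nothing ties a numbered library to an animal, so p-values reflect only how these samples vary, which may be technical.

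Oxidative phosphorylation couples electron transfer to ATP synthesis across the inner mitochondrial membrane. Complex I takes electrons from NADH and complex II from succinate, complex III passes them to cytochrome c, complex IV hands them to oxygen, and complex V uses the resulting proton gradient to make ATP. Some core subunits are encoded by mitochondrial DNA, and the genes described here supply the remainder from the nucleus. In the colon, surface epithelial cells oxidise butyrate made by bacteria, and smooth muscle also contains many mitochondria. In whole tissue, fewer cells of a type and less RNA per cell cannot be told apart.

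Levels are FPKM (fragments per kilobase of transcript, relative to library size), so genes can be compared within a library. Changes are log2 fold changes of FPKM + 1 ± SE from limma, fitted over all 13263 tested genes, with p-values adjusted by Benjamini and Hochberg's method, and calls were made under an adjusted 0.05. Library totals lay between 517933 and 558590 FPKM, and the read depth is unknown. Some libraries stood apart in genes of other tissues. The mean log2(FPKM + 1) of 10 pancreatic acinar genes reached 10.2 (DSS 1), 7.83 (DSS 3) and 8.67 (KO 3), and stayed at or under 0.92 elsewhere. Squamous epithelium genes were raised in DSS 2, WT 2, WT 4, KO 3 and COM 3, with means of 2.31 to 3.84. Hox genes of the distal gut, a sign of where tissue was taken, had means of 1.15 in Control 3 and 2.26 in KO 2, against 2.81 in DSS 3 and at least 3.60 elsewhere. Adipocyte genes varied too, with means of 3.59 in Control 3 and 3.60 in COM 2, against 1.09 in Control 2 and 1.70 to 3.10 elsewhere. No set of libraries was left out by the adipocyte genes. Counts without the acinar-rich, squamous-rich or low-Hox libraries are given where they differ by more than 1.5 times.

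Promoter sequences are shown because NRF1, GABPA (an ETS factor), YY1 and ESRRA are textbook transcription factors of respiratory chain genes. RefSeq windows (GRCm38.p6) from 250 bases before to 50 bases after a start site were matched to 70 members, 69 of them tested. Both strands were searched for GCGCA and GCGC with 1 base between them (NRF1), CCGGAAG (ETS), AAGATGGCG (YY1) and TNAAGGTCA (ESRRA), where N is any base. The NRF1 letters are close to their own reverse complement, so 1 stretch can match on both strands, while no match of 1 motif is also a match of another. NRF1 letters were found in 17 of the 69 tested members (24.6%), against 10.7% of 10594 tested genes and 4.60% of all 32851 windows. ETS letters were found in 17 members (24.6%), against 19.1% of tested genes and 8.86% of windows. For YY1 the count was 7 members (10.1%), against 3.39% of tested genes and 1.40% of windows, and for ESRRA 3 members (4.35%), against 0.906% of tested genes and 1.28% of windows. At least 1 of the 4 was found in 35 members (50.7%), against 30.2% of tested genes and 14.7% of windows. A match describes the letters only.

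The 120 bases before the start site are printed for 1 gene of each complex with matched letters, and for Atp5g2, whose level hardly differed between DSS and Control. Sequences run 5′ to 3′ on the gene's strand, here always the minus strand, and capitals mark the matched letters, which in CTTCCGG are the reverse complement of the ETS motif. Ndufb4 (chr16:37654369-37654488) encodes an accessory subunit of complex I and holds NRF1 and ESRRA letters. Sdha (chr13:74350241-74350360) encodes the flavoprotein of complex II and holds NRF1 letters. Uqcr11 (chr10:80406822-80406941), a small subunit of complex III, holds ETS letters, and Cox6a1 (chr5:115348959-115349078), of complex IV, holds NRF1 and ETS letters. Atp5j (chr16:84834977-84835096), coupling factor 6 of ATP synthase, holds YY1 and ETS letters. Atp5g2 (chr15:102671048-102671167), a gene for the c subunit of the ATP synthase rotor, holds NRF1 letters.
Ndufb4: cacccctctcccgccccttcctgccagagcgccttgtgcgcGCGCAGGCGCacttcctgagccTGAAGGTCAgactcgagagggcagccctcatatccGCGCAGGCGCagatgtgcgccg
Sdha: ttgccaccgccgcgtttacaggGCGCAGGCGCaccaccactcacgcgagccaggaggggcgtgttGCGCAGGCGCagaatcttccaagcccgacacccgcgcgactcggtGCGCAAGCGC
Uqcr11: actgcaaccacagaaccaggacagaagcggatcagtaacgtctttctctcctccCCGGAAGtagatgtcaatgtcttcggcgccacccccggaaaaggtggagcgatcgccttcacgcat
Cox6a1: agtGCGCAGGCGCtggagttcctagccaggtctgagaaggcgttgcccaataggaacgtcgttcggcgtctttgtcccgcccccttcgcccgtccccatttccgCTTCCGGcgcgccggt
Atp5j: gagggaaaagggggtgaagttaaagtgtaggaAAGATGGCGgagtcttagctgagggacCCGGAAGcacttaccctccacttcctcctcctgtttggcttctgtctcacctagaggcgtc
Atp5g2: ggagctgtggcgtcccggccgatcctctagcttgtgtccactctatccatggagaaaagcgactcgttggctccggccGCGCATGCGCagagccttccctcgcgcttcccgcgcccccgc

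Of the 43 tested members with a window that were called lower in DSS against Control, 22 held at least 1 of the 4 motifs, and of the 26 that were not called, 13 did. Among the printed genes, Ndufb4, Uqcr11, Cox6a1 and Atp5j fell in DSS, whereas Sdha and Atp5g2 did not pass the test.

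Most members were abundant. Mean FPKM over the 18 libraries was at least 100 for 61 of 87 genes, and the median was 159 FPKM among tested members, against 10.7 FPKM among all tested genes. The highest level was that of Cox8a, a small subunit of complex IV, at 1079 FPKM. Cox6a1 of the same complex averaged 985 FPKM, and Atp5b, the catalytic beta subunit of complex V, 953 FPKM. Median levels were 105 FPKM for complex I, 150.0 FPKM for complex II, 193 FPKM for complex III, 219.9 FPKM for complex IV and 365 FPKM for complex V. Levels within a complex were unequal: in complex I they ran from 20.0 FPKM for Ndufa11 to 305 FPKM for Ndufa3, leaving out Ndufb4b. In complex II they ran from 138 FPKM for Sdha to 182 FPKM for Sdhc. The 6 members under 10 FPKM were Ndufb4b and the tissue-restricted isoforms Cox4i2, Cox6a2, Cox6b2, Cox8b and Ndufa4l2.

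Subunit genes of all 5 complexes were lower in DSS than in Control. Of 85 tested members 52 fell and 0 rose in DSS against Control, where 5.31% of all tested genes were called lower and 11.6% higher (16.9% in either direction). The median log2 fold change of the members was -0.34, against 0.05 for all tested genes, and 80 of the 85 changes were negative. Over all 13263 tested genes 5521 changes were negative. In limma 75 members had an unadjusted p under 0.05, all of them lower, where 4370 of all tested genes did in either direction. DSS libraries lay entirely below Control libraries for 65 members, where 10.6% of all tested genes did so. Called changes ran from -0.57 for Ndufa5 to -0.24 for Ndufb5 and Uqcrc1. Median changes were -0.33 for complex I, -0.25 for complex II, -0.45 for complex III, -0.35 for complex IV and -0.32 for complex V.

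The count of 52 depended on the spread estimated over all 18 libraries and on single libraries. With only DSS and Control libraries in the fit, 0 members were called (57 at an unadjusted p under 0.05). The count was 31 without DSS 2, 34 without DSS 1, 32 without Control 2, 8 without the acinar-rich libraries, which leaves DSS 2 alone in its group, and 4 without the squamous-rich ones. The members' median lay between -0.40 and -0.25 in every setting tried. Over all genes 1539 were called higher and 704 lower. Quantile normalization gave 916 higher and 1058 lower, and rescaling to TPM 1815 higher and 506 lower. The 52 members called lower became 36 and 46 under these scalings, with 0 higher in either.

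**Figure D1:**
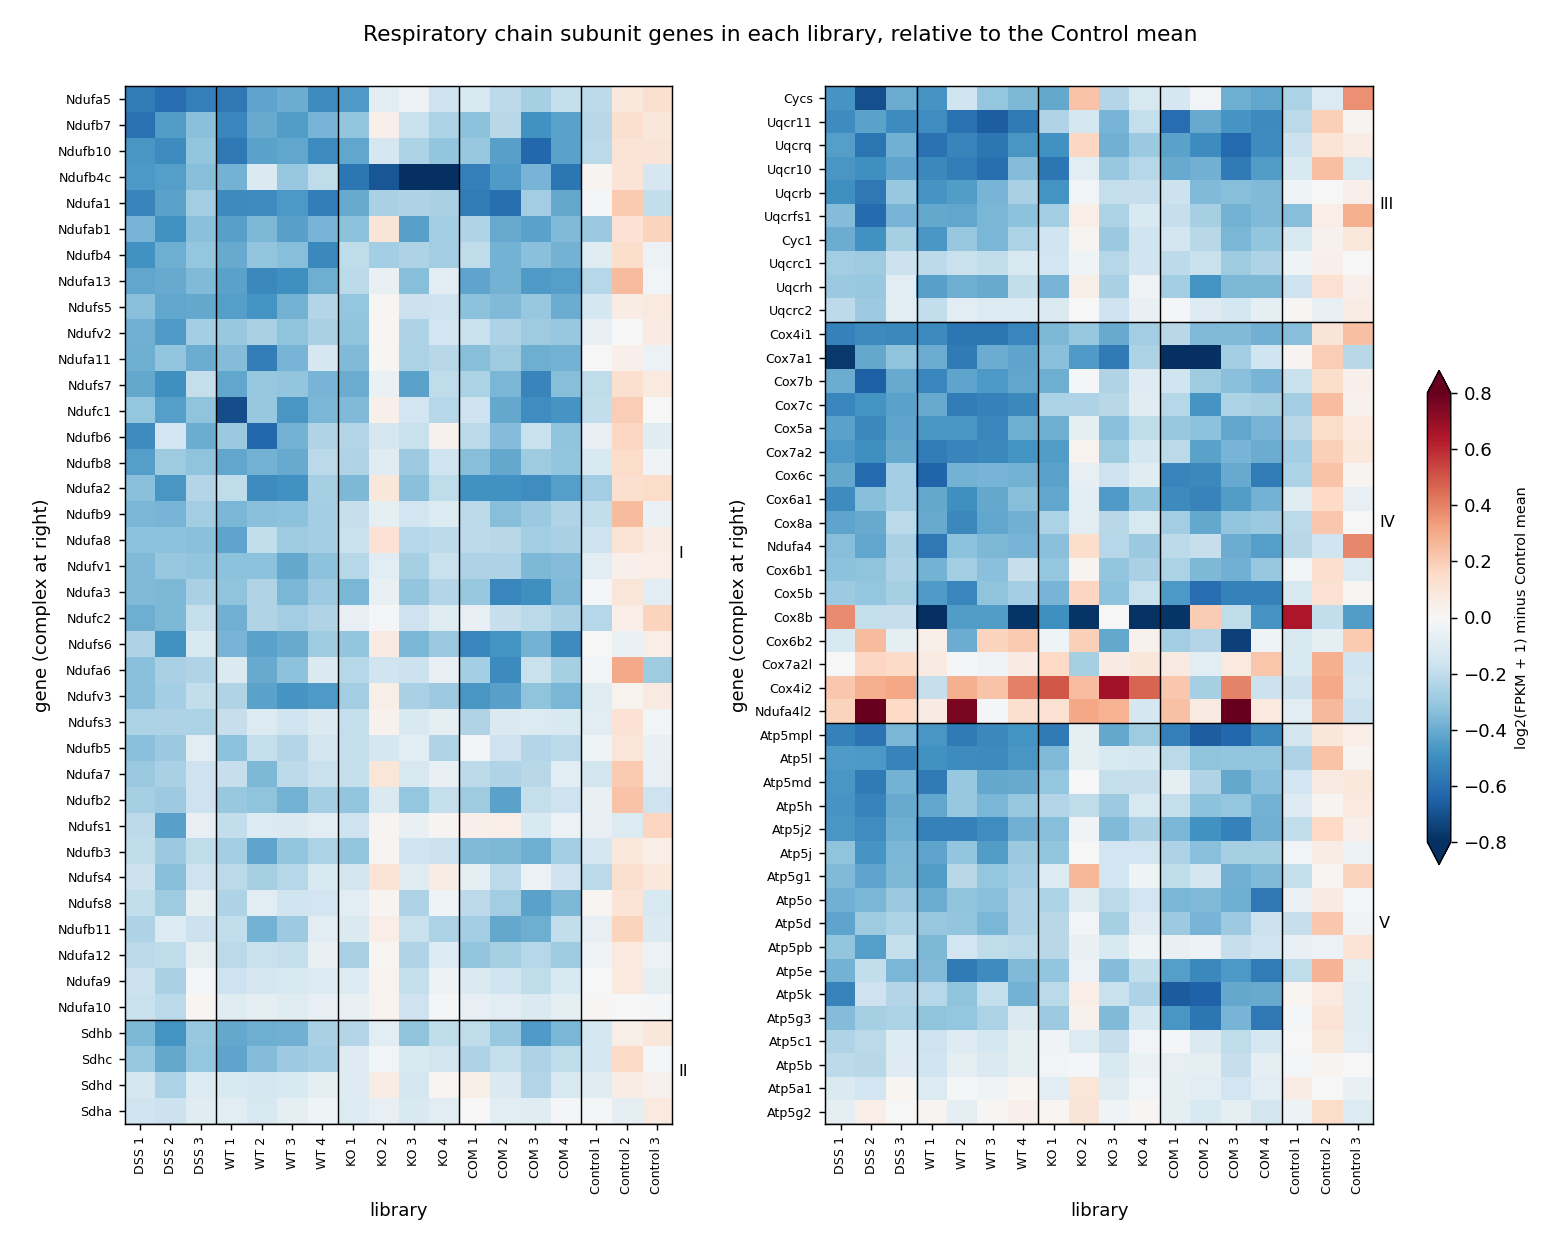
Heat map of 84 of the 85 tested subunit genes, grouped by complex I to V, in the 18 libraries, as log2(FPKM + 1) minus the Control mean; the colour scale ends at 0.8 in either direction. Most genes are below the Control mean in the DSS, WT and COM columns, and KO 2 is nearer to the Control columns than any other DSS-treated library.

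Complex I, the NADH dehydrogenase, had 22 of its 37 tested members lower in DSS. The largest fall was that of Ndufa5, an accessory subunit of the arm that reaches into the matrix (chromosome 6, 24518662 to 24527690, GRCm38.p6). Ndufa5 had 70.1, 67.6 and 70.9 FPKM in DSS, against 89.4, 110.1 and 113 FPKM in Control. All DSS libraries lay below the lowest Control library, and the log2 fold change was -0.57 ± 0.10 (adjusted p = 0.00268). Ndufb7, an accessory subunit of the membrane arm (chromosome 8, 83566758 to 83571623), had 106, 118 and 128 FPKM in DSS, against 138, 176 and 172 FPKM in Control (-0.46 ± 0.11, adjusted p = 0.0107). Ndufb10, of the same arm (chromosome 17, 24722060 to 24724423), had 137, 134 and 152 FPKM in DSS, against 163, 204 and 204 FPKM in Control (-0.43 ± 0.10, adjusted p = 0.0104). In both genes every DSS library was below every Control library.

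By role, 18 of 30 accessory and 4 of 7 core subunits of complex I fell. The core subunits carry the flavin, the iron-sulfur clusters and the quinone site. Ndufv1, which binds the flavin that accepts electrons from NADH (chromosome 19, 4007499 to 4012755), had 59.3, 61.6 and 60.9 FPKM in DSS, against 71.4, 78.5 and 79.0 FPKM in Control. The groups were apart, and its change was -0.33 ± 0.06 (adjusted p = 0.00281). Its iron-sulfur partner Ndufv2 changed by -0.37 ± 0.07, the core subunit Ndufs3 by -0.25 ± 0.06, and Ndufs7, which holds an iron-sulfur cluster near the quinone site, by -0.37 ± 0.11 with overlapping groups. The largest core subunit, Ndufs1, had 50.6, 43.1 and 55.9 FPKM in DSS and 56.1, 54.4 and 66.1 FPKM in Control, and did not pass the test (-0.24 ± 0.09, adjusted p = 0.0820). Ndufs8 at -0.18 ± 0.08 did not pass either. Median changes were -0.33 for accessory and -0.25 for core subunits, a difference that was not tested.

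In complex II, which also serves the TCA cycle, 2 of 4 genes fell. Sdhb, the iron-sulfur subunit (chromosome 4, 140961271 to 140979198), had 147, 135 and 153 FPKM in DSS, against 172, 195 and 201 FPKM in Control (-0.38 ± 0.08, adjusted p = 0.00680). Sdhc, a membrane anchor (chromosome 1, 171129157 to 171150640), had 169, 157 and 168 FPKM in DSS, against 189.9, 232 and 206 FPKM in Control (-0.34 ± 0.07, adjusted p = 0.00490). Neither gene's groups overlapped. Sdha had 130.3, 129 and 136 FPKM in DSS and 145, 138 and 154 FPKM in Control, all DSS libraries again being lower, but did not pass the test (-0.14 ± 0.05, adjusted p = 0.0666). The other anchor, Sdhd, stood at -0.16 ± 0.07 (adjusted p = 0.133).

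Complex III and cytochrome c had 8 of 10 members called. Cycs, the mobile carrier between complexes III and IV (chromosome 6, 50562563 to 50566569), had 97.1, 82.5 and 102 FPKM in DSS, against 113, 125 and 174 FPKM in Control. Its groups did not overlap, but Control 3 was well above the other Control libraries, and the change of -0.53 ± 0.17 had an adjusted p of 0.0445. Uqcr11 (chromosome 10, 80402997 to 80406821) had 141, 148 and 141 FPKM in DSS, against 172, 228 and 204 FPKM in Control (-0.48 ± 0.09, adjusted p = 0.00353). Uqcrq, another small subunit (chromosome 11, 53427922 to 53430831), had 72.0, 65.1 and 75.1 FPKM in DSS, against 87.3, 106 and 102 FPKM in Control (-0.47 ± 0.13, adjusted p = 0.0203). In both genes all DSS libraries were below all Control libraries. Among the catalytic subunits, cytochrome c1 (Cyc1) changed by -0.38 ± 0.09 and the Rieske iron-sulfur protein (Uqcrfs1) by -0.44 ± 0.13, both called. Of the core protein genes Uqcrc1 was called at -0.24 ± 0.06 (adjusted p = 0.0101) and Uqcrc2 was not at -0.19 ± 0.06 (adjusted p = 0.0509). Uqcrh, the hinge protein, was the other member not called (-0.23 ± 0.11).

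Of the 17 tested members of complex IV, cytochrome c oxidase, 9 fell. Cox4i1, the ubiquitous form of subunit IV (chromosome 8, 120668225 to 120674209), had 581, 594 and 592 FPKM in DSS, against 667, 908 and 1001 FPKM in Control (-0.52 ± 0.11, adjusted p = 0.00573). DSS libraries were close together, and Control 1, well below the other Control libraries, was still above all of them. Cox7b (chromosome X, 106015700 to 106022450) had 176, 147 and 175 FPKM in DSS, against 204, 255 and 238 FPKM in Control (-0.48 ± 0.10, adjusted p = 0.00623). Cox7c (chromosome 13, 86044798 to 86046795) had 536, 551 and 572 FPKM in DSS, against 633, 914 and 787 FPKM in Control (-0.48 ± 0.11, adjusted p = 0.00853). Both encode small membrane-spanning subunits, and the groups did not overlap for either. Cox5b (-0.29 ± 0.11) and Ndufa4 (-0.34 ± 0.15) were lower in every DSS than in every Control library without passing the test. Cox7a2l, a factor of supercomplex formation (chromosome 17, 83501917 to 83514333), had 173, 194 and 193 FPKM in DSS and 159, 211 and 154 FPKM in Control, with overlap, and stood at 0.11 ± 0.12 (adjusted p = 0.572).

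In complex V 10 of 12 genes of the membrane part and peripheral stalk fell. Of the 5 genes of F1, which holds the catalytic head and the central stalk, 1 fell, Atp5d (-0.32 ± 0.09). Atp5mpl, a small proteolipid (chromosome 12, 111961374 to 111967009), had 279, 271 and 316 FPKM in DSS, against 368, 434 and 424 FPKM in Control (-0.50 ± 0.10, adjusted p = 0.00599). Atp5l, subunit g at the dimer interface (chromosome 9, 44913248 to 44920742), had 367, 366 and 346 FPKM in DSS, against 423, 589 and 510.1 FPKM in Control (-0.48 ± 0.10, adjusted p = 0.00497). Atp5md, a small membrane subunit (chromosome 19, 47083471 to 47090647), had 727, 679 and 773 FPKM in DSS, against 905, 1058 and 1066 FPKM in Control (-0.47 ± 0.10, adjusted p = 0.00811). In none of these did the groups overlap. Atp5h, subunit d of the stalk (chromosome 11, 115415691 to 115419919), had the smallest adjusted p of the tested members, with 482, 461 and 506 FPKM in DSS, against 623, 680.0 and 706 FPKM in Control (-0.47 ± 0.07, adjusted p = 0.00124).

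Among the F1 subunits, Atp5b (chromosome 10, 128083307 to 128090388) had 876, 866 and 941 FPKM in DSS, against 1000.3, 1026 and 1009.6 FPKM in Control, without overlap (-0.18 ± 0.06, adjusted p = 0.0605). Alpha (Atp5a1) and gamma (Atp5c1) stood at -0.08 ± 0.07 and -0.19 ± 0.07 (adjusted p = 0.412 and 0.0671), and epsilon (Atp5e) at -0.31 ± 0.11 (adjusted p = 0.0602). The median change was -0.19 for F1 and -0.38 for the membrane part and peripheral stalk, a difference that was not tested. The 3 genes for the c subunit, which encode the same mature protein, had different values. Atp5g1 stood at -0.38 ± 0.11 and Atp5g3 at -0.29 ± 0.10, both called (adjusted p = 0.0290 and 0.0495). Atp5g2 (chromosome 15, 102662868 to 102671047) had 299, 327 and 316 FPKM in DSS and 307, 351 and 293 FPKM in Control, with overlap (-0.01 ± 0.07, adjusted p = 0.939). The difference between these genes was not tested.

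**Figure D2:**
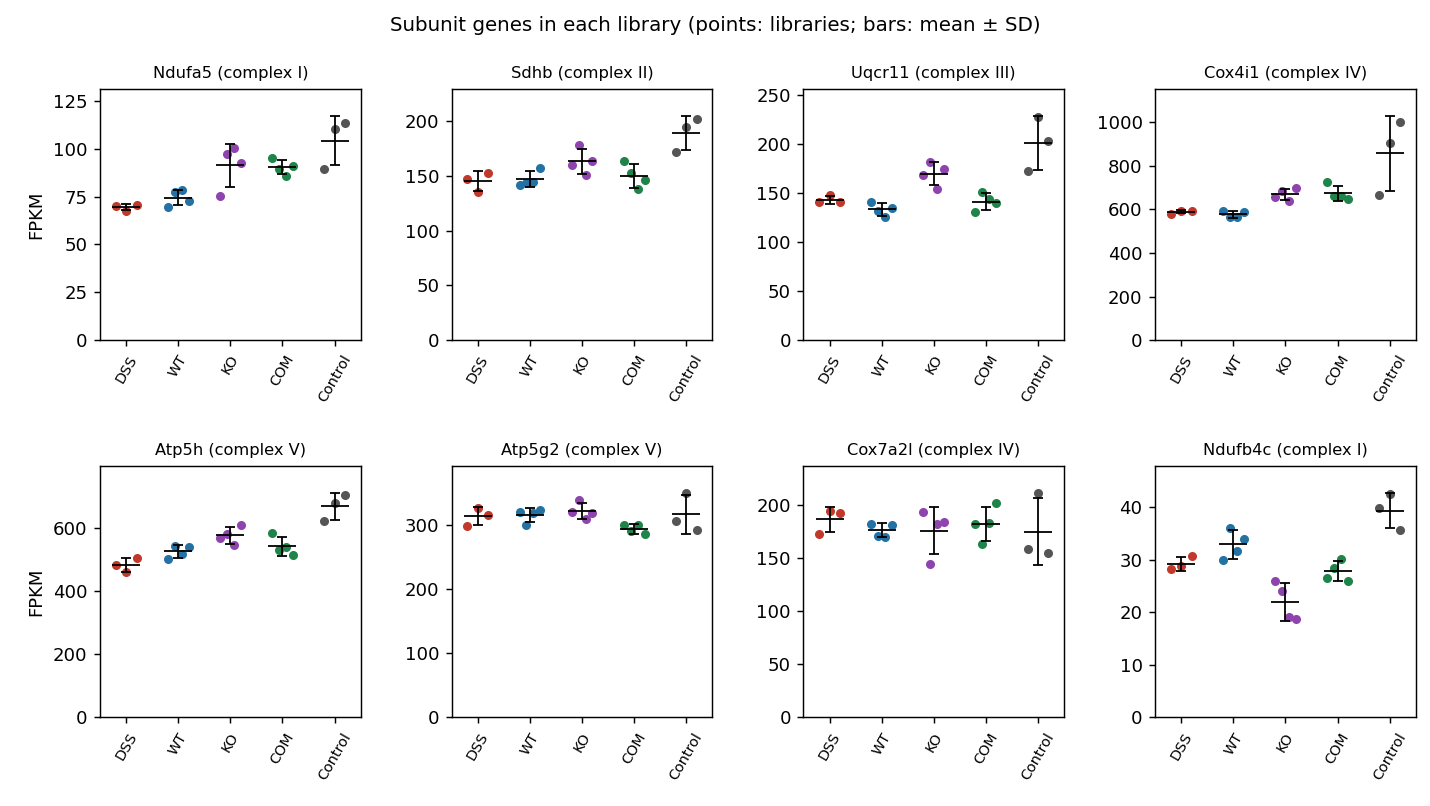
FPKM of 8 subunit genes in every library (points) with the mean ± SD of each group (bars), for DSS, WT, KO, COM and Control. Ndufa5, Sdhb, Uqcr11, Cox4i1 and Atp5h are lower in all DSS than in all Control libraries, Atp5g2 and Cox7a2l overlap, and Ndufb4c is lowest on average in KO.

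Markers of other cell types moved in the same comparison. Of 10 absorptive colonocyte markers 2 were called lower in DSS against Control and all 10 changes were negative. Summed levels were 3656 to 4719 FPKM in DSS and 7093 to 22625 FPKM in Control. The 22625 FPKM are those of Control 3, where Car1 alone had 15636 FPKM, against 2055 and 1163 FPKM in Control 1 and 2. In Control 3, Slc26a3, Car4, Aqp8 and Ceacam20 lay below every DSS library. Krt20, Guca2a, Guca2b, Cdhr5, Vil1 and Car1 lay above every one. Of 10 smooth muscle markers 4 were called lower, with sums of 1846 to 2357 FPKM in DSS and 2640 to 3010 FPKM in Control. Of 10 neuron and glia markers 4 were called lower (26.8 to 38.0 FPKM in DSS, 37.5 to 64.5 FPKM in Control). Of 10 leukocyte markers 8 were called higher (736 to 859 FPKM in DSS, 55.8 to 483 FPKM in Control), and all 6 fibroblast markers were (405 to 587 FPKM in DSS, 142 to 266 FPKM in Control). Jchain made up most of each leukocyte sum, with 620 to 733 FPKM in DSS and 42.9 to 413 FPKM in Control. General epithelial markers had 2 of 8 called lower (6343 to 7018 FPKM in DSS, 7070 to 8527 FPKM in Control). Against the same Control libraries leukocyte markers were called higher for 7 of 10 in WT (591 to 1015 FPKM), 0 of 10 in KO (287 to 731 FPKM; 6 at an unadjusted p under 0.05 in limma) and 3 of 10 in COM (434 to 553 FPKM). Fibroblast markers were called higher for 6 of 6 in WT (436 to 605 FPKM), 4 of 6 in KO (318 to 506 FPKM) and 4 of 6 in COM (388 to 484 FPKM). None of these markers was listed at 0 in any library, and their part in the subunit genes' changes was not tested.

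Transcript length moved with the changes. The median length was 601 bases for the members, against 1429 bases for all tested genes, by GENCODE M21 gene models. The 42 shorter members had a median change of -0.36 in DSS against Control and the 42 longer ones -0.28. Over these 84 genes, which are not independent replicates, Spearman's rho between length and change was 0.26 for DSS, 0.46 for WT, 0.49 for KO and 0.44 for COM, each against the same Control libraries. After the dependence on length and GC content over all genes was removed, an alternative chosen after seeing the data, 51 members were called lower in DSS against Control, with a median of -0.32.

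WT against Control asked how mice given the WT strain after DSS differed from untreated mice. Of 85 members 57 fell and 0 rose (68 at an unadjusted p under 0.05 in limma, all lower), where 8.35% of all tested genes were called lower and 14.7% higher (23.1% in either direction). Over all 13263 tested genes 4928 had an unadjusted p under 0.05 (limma, either direction). The median change was -0.35, against 0.05 for all tested genes, and 66 members lay below Control without overlap, where 10.5% of tested genes did. By complex 25 of 37, 2 of 4, 8 of 10, 11 of 17 and 11 of 17 genes fell for complexes I to V. Uqcr11 had 141, 132, 126 and 135 FPKM in WT, against 172, 228 and 204 FPKM in Control, without overlap (-0.58 ± 0.08, adjusted p = 5.58e-04), the smallest adjusted p of the members here. Uqcrq and Uqcr10, both small subunits of complex III, changed by -0.54 ± 0.12 and -0.50 ± 0.11. In complex IV, Cox4i1 had 595, 566, 564 and 588 FPKM in WT, against 667, 908 and 1001 FPKM in Control (-0.55 ± 0.10, adjusted p = 0.00204). The small subunits Cox7a2 and Cox7c changed by -0.52 ± 0.11 and -0.50 ± 0.10, and the WT and Control libraries were apart for all of these.

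Complex I was led in WT by Ndufa1, a small subunit of the membrane arm (chromosome X, 37187588 to 37191238). Ndufa1 had 87.3, 87.7, 90.7 and 84.8 FPKM in WT, against 124, 145 and 109 FPKM in Control, without overlap (-0.51 ± 0.09, adjusted p = 0.00204). Ndufb10 and Ndufa5 followed at -0.48 ± 0.09 and -0.47 ± 0.09. Sdhb and Sdhc of complex II changed by -0.36 ± 0.08 and -0.33 ± 0.06, both called, and Sdha and Sdhd stood at -0.08 ± 0.05 and -0.11 ± 0.07, not called. In complex V the largest called changes were those of Atp5mpl (-0.51 ± 0.10), Atp5l (-0.49 ± 0.09) and Atp5j2, subunit f of the membrane part (-0.49 ± 0.09). Of the F1 subunits, Atp5d and Atp5e were called at -0.31 ± 0.09 and -0.44 ± 0.10. The count was 24 with only WT and Control libraries in the fit and 17 without the squamous-rich libraries. Over all genes 1951 were called higher and 1107 lower. Quantile normalization gave 1413 higher and 1485 lower, and rescaling to TPM 2617 higher and 822 lower. Smooth muscle markers, 7 of 10 called lower, summed to 1754 to 2289 FPKM in WT and 2640 to 3010 FPKM in Control. Colonocyte markers, 3 of 10 called lower, summed to 3899 to 4818 FPKM in WT and 7093 to 22625 FPKM in Control (22625 with the high Car1 of Control 3). Of 10 neuron and glia markers 8 were called lower. None of these markers was listed at 0, and their part was not tested.

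COM against Control gave 41 members lower and 0 higher (67 at an unadjusted p under 0.05 in limma, all lower), where 2.34% of all tested genes were called lower and 5.26% higher (7.6% in either direction). Over all 13263 tested genes 3256 had an unadjusted p under 0.05 (limma, either direction). The median change was -0.31, against 0.03 for all tested genes, and 51 members lay below Control without overlap, where 5.87% of tested genes did. Counts were 20 of 37, 2 of 4, 5 of 10, 6 of 17 and 8 of 17 for complexes I to V. In complex V, Atp5mpl had 278, 258, 264 and 286 FPKM in COM, against 368, 434 and 424 FPKM in Control (-0.59 ± 0.10, adjusted p = 0.00414). Atp5k, subunit e of the membrane part (chromosome 5, 108433246 to 108434399), had 81.5, 82.7, 97.7 and 98.3 FPKM in COM, against 132, 137 and 122 FPKM in Control (-0.53 ± 0.10, adjusted p = 0.00722). Atp5g3, a c subunit gene (chromosome 2, 73908447 to 73912464), had 287, 266, 306 and 267 FPKM in COM, against 394, 427 and 371 FPKM in Control (-0.50 ± 0.09, adjusted p = 0.00608). The groups did not overlap for these 3 genes. Reads of Atp5k can be shared with 4 pseudogenes named after it, so its value is uncertain.

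In complex IV, Cox5b, a subunit on the matrix side (chromosome 1, 36691487 to 36693388), had 219, 197, 207 and 207 FPKM in COM, against 275, 328 and 303 FPKM in Control, without overlap (-0.54 ± 0.11, adjusted p = 0.0101). Cox6c and Cox6a1 changed by -0.50 ± 0.12 and -0.47 ± 0.09, both called, while Cox4i1 stood at -0.33 ± 0.10 (adjusted p = 0.0572). In complex III, Uqcrq, Uqcr11 and Uqcr10 changed by -0.52 ± 0.12, -0.50 ± 0.08 and -0.45 ± 0.11. In complex I the called members with the most negative changes were Ndufb4c (-0.49 ± 0.10), Ndufa2 (-0.48 ± 0.12) and Ndufs6 (-0.47 ± 0.10). Ndufa5 had 95.0, 89.7, 86.0 and 90.9 FPKM in COM, against 89.4, 110.1 and 113 FPKM in Control, with overlap (-0.20 ± 0.09, adjusted p = 0.204). Sdhb (-0.33 ± 0.08) and Sdhc (-0.22 ± 0.06) were called in complex II.

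The COM count was 0 with only COM and Control libraries in the fit (57 at an unadjusted p under 0.05), 1 without the squamous-rich libraries, 16 without Control 2, 23 without COM 3 and 24 without COM 4. Its median was negative in every setting tried. Over all genes 697 were called higher and 311 lower. Quantile normalization gave 402 higher and 429 lower, and rescaling to TPM 1166 higher and 191 lower. Of the markers, 3 of 10 for smooth muscle were called lower (1814 to 2740 FPKM in COM, 2640 to 3010 FPKM in Control). For colonocytes 1 of 10 was (4807 to 9007 FPKM in COM, 7093 to 22625 FPKM in Control, 22625 with the high Car1 of Control 3). Car1 was also high in COM 1 and COM 2, at 5102 and 4136 FPKM, against 1358 and 1148 FPKM in COM 3 and COM 4. The overlap of the sums thus rests on libraries with high Car1. None of these markers was listed at 0, and their part was not tested.

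**Figure D3:**
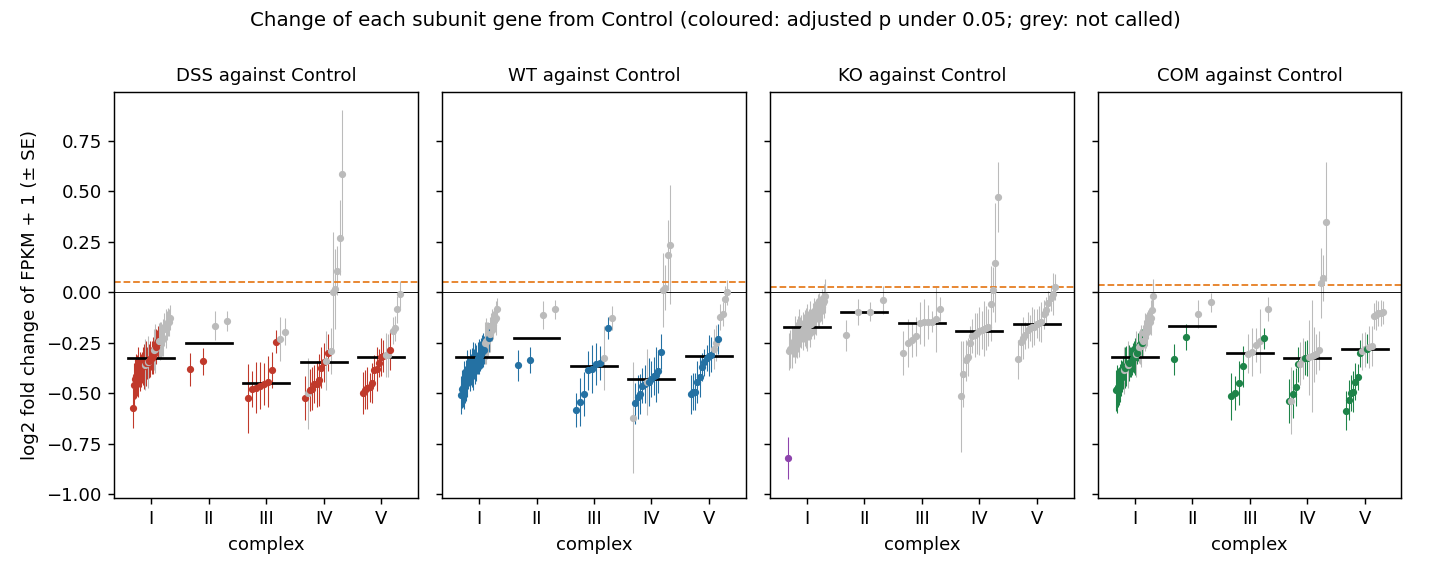
Log2 fold change of FPKM + 1 (± SE) of each of the 85 tested subunit genes in DSS, WT, KO and COM, each against the same 3 Control libraries, by complex. Black lines are the medians of each complex, the dashed line is the median of all tested genes, and coloured points are called: 52 in DSS, 57 in WT, 1 in KO and 41 in COM.

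KO against Control gave 1 member lower and 0 higher, where 1.46% of all tested genes were called lower and 3.69% higher (5.14% in either direction). The median change of the members was -0.17, against 0.03 for all tested genes, and 81 of 85 changes were negative. In limma 32 members had an unadjusted p under 0.05, 31 of them lower, and Cox4i2 higher. Over all 13263 tested genes 5772 changes were negative, and 2805 genes had an unadjusted p under 0.05 (limma, either direction). KO libraries lay entirely below Control for 7 members, where 5.07% of tested genes did, and entirely above it for 0, where 8.07% did. The called gene was Ndufb4c (chromosome 15, 73809449 to 73809933), a close copy of Ndufb4 by its symbol, with 26.1, 24.0, 19.2 and 18.8 FPKM in KO, against 40.0, 42.5 and 35.8 FPKM in Control. All KO libraries lay below all Control libraries (-0.82 ± 0.10, adjusted p = 0.00185). Ndufb4 itself (chromosome 16, 37647602 to 37654368) had 263, 251, 255 and 249 FPKM in KO, against 283, 334 and 293 FPKM in Control, also without overlap (-0.25 ± 0.07, adjusted p = 0.0527). Reads can be split between such copies, so the value of either gene alone is uncertain.

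In the other complexes the members with the smallest p in KO against Control were Sdhb (-0.21 ± 0.08, adjusted p = 0.123), Uqcr11 (-0.24 ± 0.08, adjusted p = 0.115), Cox6a1 (-0.32 ± 0.09, adjusted p = 0.0630) and Atp5mpl (-0.33 ± 0.10, adjusted p = 0.0610). Single libraries weighed heavily here. The count was 21 without Control 1, 12 without KO 2, 9 without the low-Hox libraries Control 3 and KO 2, 2 without Control 3, 2 without WT 4, and 0 with only KO and Control libraries in the fit (8 at an unadjusted p under 0.05). Without Control 1 or KO 2 the median change was -0.23 and -0.22. Over all genes 489 were called higher and 193 lower. Quantile normalization gave 290 higher and 229 lower, and rescaling to TPM 591 higher and 121 lower. Colonocyte markers, 1 of 10 called lower, summed to 5210 to 8304 FPKM in KO and 7093 to 22625 FPKM in Control (22625 with the high Car1 of Control 3). Smooth muscle markers had 0 of 10 called in limma (2 at an unadjusted p under 0.05) and summed to 2204 to 2685 FPKM in KO and 2640 to 3010 FPKM in Control. None was listed at 0, and their part was not tested.

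The strain groups were next set against DSS, the question being whether a strain given after DSS left the genes at another level than DSS alone. These comparisons share the DSS libraries with each other. WT against DSS had 0 of 85 members called (limma, 1 at an unadjusted p under 0.05), where 0% of tested genes were, and the median change was 0.01. KO against DSS had 0 members called (34 at an unadjusted p under 0.05, 33 higher), where 0.166% of tested genes were (0.098% higher and 0.0679% lower), and the median was 0.16. COM against DSS had 0 members called (7 at an unadjusted p under 0.05), where 0.0151% of tested genes were, and the median was 0.02. The median change of all tested genes was -0.03 in KO against DSS and -0.02 in COM against DSS. Of the 13263 tested genes, 633, 2160 and 1461 had an unadjusted p under 0.05 in WT, KO and COM against DSS (limma, either direction).

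In KO against DSS 80 of 85 changes were positive and 26 members lay above DSS without overlap, where 7.68% of tested genes did. Over all 13263 tested genes 7494 changes were negative. Ndufa5 had 75.4, 97.4, 100.2 and 92.5 FPKM in KO, against 70.1, 67.6 and 70.9 FPKM in DSS, without overlap (0.38 ± 0.09, adjusted p = 0.0984). Atp5h had 569, 581, 547 and 611 FPKM in KO, against 482, 461 and 506 FPKM in DSS (0.26 ± 0.07, adjusted p = 0.104), and Sdhc had 194, 206, 192 and 189 FPKM in KO, against 169, 157 and 168 FPKM in DSS (0.24 ± 0.06, adjusted p = 0.106). Neither gene's groups overlapped. Uqcr11 stood at 0.24 ± 0.08 and Cox7b at 0.30 ± 0.10, and no member passed the test. With single libraries left out the count was 1 without Control 1, 2 without Control 3 and 1 without KO 1, and the median was between 0.11 and 0.19. Of 10 colonocyte markers 0 were called in KO against DSS (limma, 3 at an unadjusted p under 0.05), with sums of 5210 to 8304 FPKM in KO and 3656 to 4719 FPKM in DSS, and of 10 smooth muscle markers 0 were (1 at an unadjusted p under 0.05; 2204 to 2685 FPKM in KO, 1846 to 2357 FPKM in DSS). Sums of the leukocyte markers lay wholly lower in KO, at 287 to 731 FPKM in KO and 736 to 859 FPKM in DSS. Their mean log2(FPKM + 1) did so too (2.8634 to 3.5802 in KO, 3.9188 to 4.0887 in DSS). Single markers could overlap, among them Cd79a, Csf3r and Jchain, which had 240 to 653 FPKM in KO and 620 to 733 FPKM in DSS. Of the leukocyte markers 0 of 10 were called (limma, 5 at an unadjusted p under 0.05, all 10 changes negative). For general epithelial markers only the sums were wholly higher, at 7589 to 9018 FPKM in KO and 6343 to 7018 FPKM in DSS. Their mean log2(FPKM + 1) overlapped (9.2985 to 9.5183 in KO, 9.1665 to 9.3047 in DSS). One of them, Elf3, was lower in every KO than in every DSS library. Of these markers 0 of 8 were called (limma, 4 at an unadjusted p under 0.05). None of these markers was listed at 0, and their part was not tested.

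In WT against DSS 1 member lay above and 1 below without overlap, Ndufs3 (0.11 ± 0.06) and Cox8b (-0.62 ± 0.28), where 4.48% of tested genes lay above and 6.01% below. Sdha, Uqcrc1 and Atp5h stood at 0.06 ± 0.05, 0.07 ± 0.05 and 0.12 ± 0.07. In COM against DSS 10 members lay above and 4 below, where 6.67% of tested genes lay above and 9% below. Ndufa5 had 95.0, 89.7, 86.0 and 90.9 FPKM in COM, against 70.1, 67.6 and 70.9 FPKM in DSS, without overlap (0.37 ± 0.09, adjusted p = 0.168). Atp5pb, subunit b of the stalk, stood at 0.20 ± 0.07, Uqcrc2 at 0.11 ± 0.06, Sdha at 0.09 ± 0.05 and Cox5b at -0.25 ± 0.11, none of them called. Leukocyte markers summed to 434 to 553 FPKM in COM and 736 to 859 FPKM in DSS, and general epithelial markers to 7063 to 7839 FPKM in COM and 6343 to 7018 FPKM in DSS, both sums without overlap. The mean log2(FPKM + 1) of the epithelial markers did overlap (9.2211 to 9.3623 in COM, 9.1665 to 9.3047 in DSS). Of the leukocyte and epithelial markers, 0 of 10 and 0 of 8 were called (limma, 1 and 3 at an unadjusted p under 0.05), and their part was not tested.

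KO against WT compared mice given the KO strain with mice given the WT strain, and 1 member rose and 1 fell, where 0.324% of tested genes were called higher and 0.505% lower (0.829% in either direction). The median change was 0.16, against -0.02 for all tested genes, 80 of 85 changes were positive, and 38 had an unadjusted p under 0.05, 37 of them higher. Over all 13263 tested genes 7337 changes were negative, and 2672 genes had an unadjusted p under 0.05 (limma, either direction). Above WT without overlap were 23 members, where 7.83% of tested genes were. Uqcr11 had 169, 182, 154 and 175 FPKM in KO, against 141, 132, 126 and 135 FPKM in WT, without overlap (0.35 ± 0.08, adjusted p = 0.0480). Ndufb4c had 26.1, 24.0, 19.2 and 18.8 FPKM in KO, against 30.0, 36.1, 31.7 and 34.0 FPKM in WT, the only member with all KO libraries below all WT libraries, where 9.4% of tested genes were (-0.57 ± 0.10, adjusted p = 0.0256). Ndufb4 stood at 0.15 ± 0.07 (adjusted p = 0.225), opposite in sign to its copy.

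Sdhc had 194, 206, 192 and 189 FPKM in KO, against 156, 164, 171 and 172 FPKM in WT, without overlap, and did not pass the test (0.23 ± 0.06, adjusted p = 0.0606). Nor did Atp5l (0.32 ± 0.08) and Cox7c (0.30 ± 0.09), each also apart. The count of 2 in KO against WT was sensitive to single libraries. It was 7, 5 and 4 without Control 1, 2 and 3, which enter only through the shared spread, 3 without KO 1, 1 without KO 2, WT 1, WT 4 or any DSS or COM library, and 0 without WT 2, WT 3, KO 3 or KO 4. With only KO and WT libraries in the fit it was 5, and without the acinar-rich or the squamous-rich libraries 0. Without KO 2, the KO library with the highest subunit levels and low Hox genes, the median change was 0.11. Smooth muscle markers had 0 of 10 called in KO against WT (limma, 9 at an unadjusted p under 0.05), with sums of 2204 to 2685 FPKM in KO and 1754 to 2289 FPKM in WT, and colonocyte markers 0 of 10 (3 at an unadjusted p under 0.05; 5210 to 8304 FPKM in KO, 3899 to 4818 FPKM in WT). Leukocyte markers had 1 of 10 called lower (287 to 731 FPKM in KO, 591 to 1015 FPKM in WT), and general epithelial markers 1 of 8 called higher (7589 to 9018 FPKM in KO, 7006 to 8219 FPKM in WT), both with overlapping sums. Another epithelial marker, Elf3, was lower in every KO than in every WT library (298 to 324 FPKM in KO, 369 to 415 FPKM in WT). None of these markers was listed at 0, and their part was not tested.

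COM against KO had 0 members called (limma, 25 at an unadjusted p under 0.05, 24 lower), where 0.0302% of tested genes were (0.0226% higher and 0.00754% lower), with a median of -0.12, against 0.01 for all tested genes. Over all 13263 tested genes 1431 had an unadjusted p under 0.05 (limma, either direction). Below KO without overlap were 15 members, where 3.34% of tested genes were. Atp5k had 81.5, 82.7, 97.7 and 98.3 FPKM in COM, against 112, 135, 115 and 109 FPKM in KO, without overlap (-0.38 ± 0.09, adjusted p = 0.184). Cox5b stood at -0.36 ± 0.10, Uqcr11 at -0.26 ± 0.08, Sdhc at -0.12 ± 0.06 and Ndufb4c at 0.34 ± 0.10. COM against WT had 0 called (limma, 8 at an unadjusted p under 0.05), where 0.00754% of tested genes were, with a median of 0.03, and 6 members lay above and 3 below without overlap, where 4.69% and 5.69% of tested genes did. Of all 13263 tested genes 1481 had an unadjusted p under 0.05 here (limma, either direction). Ndufa5 had 95.0, 89.7, 86.0 and 90.9 FPKM in COM, against 69.6, 77.2, 78.6 and 72.8 FPKM in WT, without overlap (0.28 ± 0.09, adjusted p = 0.304). Cox4i1 stood at 0.22 ± 0.09, Sdhc at 0.11 ± 0.06, Cyc1 at 0.08 ± 0.08 and Atp5g3 at -0.25 ± 0.08.

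Across the 5 groups the Control mean was the highest for 80 of the 85 tested members. The exceptions were Atp5g2, Cox4i2, Cox6b2, Cox7a2l and Ndufa4l2. Of the 4 DSS-treated groups KO had the highest mean for 75 members, and for 73 of these the KO mean was below Control. The lowest mean was found in DSS for 33, in COM for 26 and in WT for 22 members. This order of means was counted for the members only, so no share over all tested genes can be set beside it. Taken as 1 sum, the 87 genes made up 3.61 ± 0.170% of the library FPKM in DSS, 3.66 ± 0.0755% in WT, 4.05 ± 0.276% in KO, 3.76 ± 0.109% in COM and 4.50 ± 0.335% in Control (SD, n = 3, 4, 4, 4 and 3). Single libraries ran from 3.46% to 3.80% in DSS, 3.58% to 3.76% in WT, 3.81% to 4.42% in KO, 3.67% to 3.91% in COM and 4.11% to 4.71% in Control. DSS, WT and COM thus lay apart from Control, while KO overlapped with it through KO 2. Complex V had the largest share, at 1.24% in DSS, 1.28% in WT, 1.41% in KO, 1.30% in COM and 1.52% in Control, and complex II the smallest, at 0.109%, 0.113%, 0.121%, 0.117% and 0.129% in the same order of groups.

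**Figure D4:**
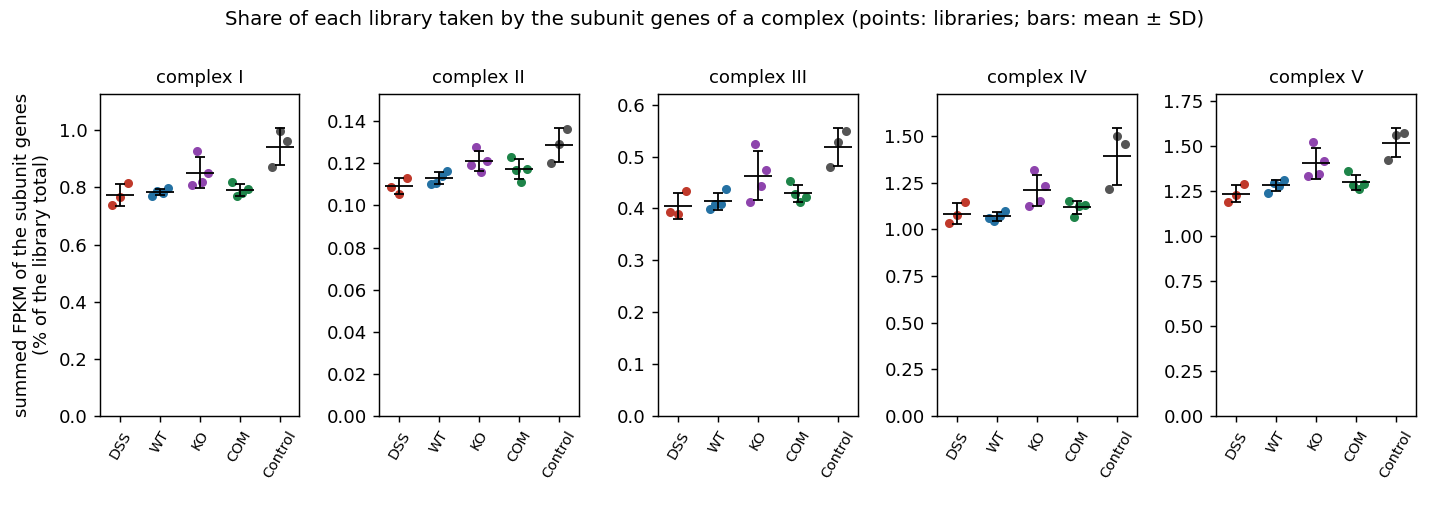
Summed FPKM of the members of each complex as a percent of the library's total FPKM, by library (points) with the mean ± SD of DSS, WT, KO, COM and Control. In every complex the Control mean is the highest and the KO mean is the next, from 1.52% and 1.41% in complex V to 0.129% and 0.121% in complex II.

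Some subunits have a tissue-restricted isoform beside a ubiquitous one. Cox7a1, the heart and muscle form of subunit VIIa (chromosome 7, 30184171 to 30186030), was the only restricted isoform above 10 FPKM, with 43.3, 55.9 and 59.3 FPKM in DSS, 56.2, 50.0, 56.4 and 55.4 FPKM in WT, 58.8, 54.2, 49.9 and 62.2 FPKM in KO, 40.7, 41.0, 61.3 and 66.5 FPKM in COM and 75.6, 85.7 and 63.8 FPKM in Control. DSS, WT and KO lay below Control without overlap and COM overlapped with it, but no change passed the test (-0.50 ± 0.17, adjusted p = 0.0605 in DSS). As a share of Cox7a1 and its ubiquitous counterpart Cox7a2 it made up 26.1 ± 3.03% in DSS, 27.7 ± 1.21% in WT, 24.3 ± 3.21% in KO, 24.6 ± 5.35% in COM and 26.9 ± 4.06% in Control (SD), so the groups overlapped.

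Cox4i2, a lung-enriched and oxygen-sensitive form of subunit IV (chromosome 2, 152753916 to 152765039), had 1.49, 1.63 and 1.66 FPKM in DSS and 0.910, 1.65 and 0.960 FPKM in Control, at 0.270% and 0.138% of the sum with Cox4i1. Ndufa4l2, a hypoxia-induced paralog of Ndufa4 (chromosome 10, 127509274 to 127517154), had 1.36, 4.56 and 1.33 FPKM in DSS and 0.960, 1.49 and 0.850 FPKM in Control, DSS 2 being the highest of all 18 libraries. Neither change passed the test (0.27 ± 0.19 and 0.59 ± 0.32). Cox6b2, a testis form, made up 0.883% of the sum with Cox6b1 in DSS, 0.882% in WT, 0.785% in KO, 0.686% in COM and 0.714% in Control. Cox8b, a muscle form, made up 0.135% of the sum with Cox8a in DSS and 0.118% in Control, and Cox6a2, another muscle form, 0.0322% of the sum with Cox6a1 in DSS and 0.00315% in Control, a level too low to be tested.

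**Figure D5:**
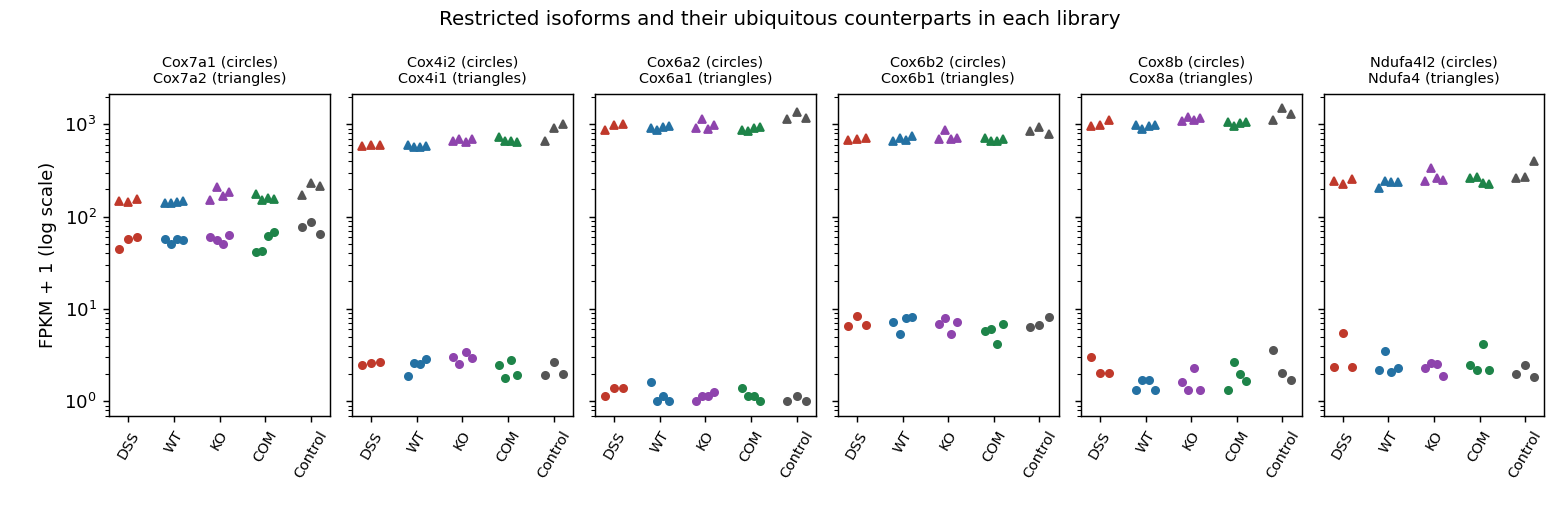
FPKM + 1 on a log axis of 6 tissue-restricted isoforms beside their ubiquitous counterparts, by library (points), in DSS, WT, KO, COM and Control. Cox7a1 reaches 24.3% to 27.7% of the sum with Cox7a2 on group average, and the other restricted isoforms stay near or below 1%.

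Other mitochondrial gene lists gave the setting in DSS against Control, and 0 genes of any of them rose (limma). Their counts stand beside 5.31% of all tested genes called lower and a median change of 0.05 over all tested genes. Of the 44 assembly factors 1 was called lower (2.27%, under the share of all genes), Pet100, a complex IV assembly factor (-0.45 ± 0.12), and the median was -0.16 (12 at an unadjusted p under 0.05). For the TCA cycle 7 of 17 enzyme genes fell (41.2%), among them Dld (-0.36 ± 0.10) and Dlst (-0.32 ± 0.09), with a median of -0.26. The mitochondrial ribosome list, made of symbols starting with Mrpl or Mrps, had 13 of 78 genes lower (16.7%), with a median of -0.16. Its largest called changes were those of Mrps36 (-0.55 ± 0.10), Mrpl12 (-0.43 ± 0.12) and Mrpl2 (-0.35 ± 0.05). Membership rests on the symbol alone, so Mrps36 is not shown here to be a ribosomal subunit. Of 27 import and outer membrane genes 5 fell (18.5%), led by the channel gene Vdac3 (-0.59 ± 0.10), Chchd2 (-0.44 ± 0.12) and the import chaperone Timm13 (-0.38 ± 0.09), with a median of -0.17. Slc25a3, the phosphate carrier, fell (-0.29 ± 0.09). It was the 1 called of 6 genes of adenine nucleotide and phosphate exchange, mitochondrial creatine kinase and the ATP synthase inhibitor. Of 18 glycolysis genes 2 fell (11.1%), Aldoa (-0.34 ± 0.07) and Ldha (-0.33 ± 0.10), with a median of -0.20.

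Of 16 regulators of mitochondrial biogenesis 1 was called lower in DSS (6.25%, near the 5.31% of all tested genes), the nuclear receptor gene Esrra (-0.39 ± 0.09), and the median was -0.03. Ppargc1a, the coactivator, stood at -0.35 ± 0.28, Nrf1 at 0.00 ± 0.08, Gabpa at 0.16 ± 0.09, Yy1 at -0.13 ± 0.06 and Tfam, which packages mitochondrial DNA, at -0.14 ± 0.10, none of them called. The other 3 groups share the Control libraries with DSS, and 8.35% of all tested genes were called lower in WT, 1.46% in KO and 2.34% in COM. The TCA list had 1 of 17 genes lower in WT (5.88%, under the share of all genes), 0 in KO and 0 in COM (7, 3 and 4 at an unadjusted p under 0.05 in limma). The mitochondrial ribosome list had 12 of 78 lower in WT (15.4%), 2 in KO (2.56%) and 13 in COM (16.7%). The assembly factor list had 2 of 44 lower in WT (4.55%, under the share of all genes), 0 in KO (3 at an unadjusted p under 0.05 in limma) and 2 in COM (4.55%). Medians were -0.17, -0.11 and -0.14 for the TCA cycle in WT, KO and COM, -0.10, -0.06 and -0.14 for the ribosome, and -0.06, -0.06 and -0.11 for the assembly factors, while those of the subunit genes were -0.35, -0.17 and -0.31.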

How the data were processed

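Whole colons were rinsed in PBS and snap-frozen, and RNA was sequenced on the DNBSEQ platform, per the labels' protocols. The authors deposited FPKM per gene for 18 libraries, and the genome build mm10 is given per the submitters' processing notes. Aligner, annotation and read numbers: not given in the sources used here, so depth is unknown. Gene symbols and GRCm38.p6 positions came from RefSeq (18230 of 18349 identifiers matched). The 13263 genes that reached 1 FPKM in 3 or more libraries were tested on log2(FPKM + 1), which understates changes of low genes, with limma 3.58.1 in R 4.3.3. All 18 libraries entered 1 fit of 5 groups, with 10 two-sided comparisons, each Benjamini-Hochberg adjusted over all tested genes and called at an adjusted p under 0.05. The scripts were tested on simulated data.

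The members and lists were chosen with earlier results of these data known. Named for each comparison and complex are up to 3 called members per direction with the largest change, or the member with the smallest p where none was called, and for each further list up to 3 called genes. Other members are named for their role, with their values known. Some genes within the counts are not reported here by name. Alternatives were a pseudocount of 0.1, no filter, a filter of 5 FPKM, rescaling to TPM, quantile normalization, a replicate block, a fit of only the groups compared, each library left out, and the acinar-rich, squamous-rich or low-Hox libraries left out. A length and GC trend was added as an alternative after seeing the data. Reads of 11 members can be shared with 18 pseudogenes named after them (Atp5c1, Atp5k, Atp5l, Atp5pb, Cox5b, Cox7c, Cycs, Ndufa12, Ndufab1, Ndufs5 and Uqcrh), and their values are uncertain.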

Additional observations from a re-analysis of the deposited data

Results flagged for a closer look

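Dixon's test at the 95% level was applied to each of 144 sets of 4 libraries, and in 10 of them 1 library lay far from the other 3. Chance alone sets apart about 1 in 20 such sets. Low libraries were COM 2 for Cox7c, a small subunit of complex IV, at 554.96 FPKM, WT 2 for the muscle isoform Cox7a1 of the same complex at 50.01 FPKM, and KO 1 for Ndufa1 of complex I at 94.38 FPKM. WT 1 was low for Cox6c of complex IV (469.85 FPKM) and COM 1 for the core subunit Ndufs3 (109.18 FPKM). High libraries were COM 1 for Atp5l of ATP synthase at 433.44 FPKM, and KO 2 for Cox6b1 of complex IV at 865.06 FPKM and for Ndufs6 of complex I at 89.73 FPKM. In WT 2 and COM 3 the low isoform Ndufa4l2 reached 2.51 and 3.2 FPKM, above the other libraries of its group.

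The KO and WT groups differed in their changes from Control for 2 members, by a limma test of the difference between the groups. For Ndufb4c the KO change minus the WT change was -0.57 on the log2 scale, and for Uqcr11 it was 0.35. All 4 KO libraries lay below all 4 WT libraries for Ndufb4c and above them for Uqcr11, and both calls were lost without some libraries.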

How the results depend on the processing

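The members' median change from Control was negative under every alternative, whereas counts of calls moved. With only the groups compared in the fit, 0 members were called in DSS against Control (57 at an unadjusted p under 0.05 in limma), 24 in WT, 0 in KO (8 at an unadjusted p under 0.05) and 0 in COM (57 at an unadjusted p under 0.05), and 5 in KO against WT. Without the squamous-rich libraries the counts were 4 in DSS, 17 in WT and 1 in COM against Control, and 0 in KO against WT. Without the acinar-rich libraries they were 8 in DSS against Control and 0 in KO against WT, and without the low-Hox libraries 9 in KO against Control and 1 in KO against WT. For KO against Control no filter and quantile normalization each gave 2. For KO against WT a pseudocount of 0.1, no filter, quantile normalization and rescaling to TPM each gave 1, and the length and GC trend removed gave 0, where Ndufb4c has no length and was not tested. The cause of these moves was not tested. With single libraries left out, the lowest and highest counts were 31 and 60 in DSS, 40 and 61 in WT, 1 and 21 in KO and 16 and 58 in COM against Control, 0 and 2 in KO against DSS, and 0 and 7 in KO against WT. Called whichever library was left out were 26 of 52 members in DSS, 38 of 57 in WT, 1 of 1 in KO and 16 of 41 in COM against Control, and 0 of 2 in KO against WT. Of the named members' values under alternatives, 5115 stayed on their side of the threshold, 254 were no longer called, 49 became called and 0 changed sign past it. Groups share replicate numbers, and the labels do not say what a number means. Deviations of same-numbered libraries from their group means correlated at -0.47 to 0.39. Such correlations cannot show whether these libraries were paired. With a replicate block 45 members were called in DSS, 53 in WT, 1 in KO and 33 in COM against Control. In KO against WT the block gave 0 (limma, 37 at an unadjusted p under 0.05). Without read counts, the precision of low members cannot be given.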
